A study of Mus musculus with 16 samples.

Results

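The genes described here are 53 mouse genes linked to hereditary hearing loss or to the hair bundle. The question was where they lie in the chromatin loops of the newborn cochlea. They were taken by name as 53 of 21755 protein-coding genes on chromosomes 1 to 19 and X, and each matched 1 gene of GENCODE vM21. A gene counted as anchored when a loop had an anchor bin in its body or within 20 kb of its start site, and as spanned when it lay whole between the anchors of a loop. The loops were the 6798 pairs of 10 kb bins called from Micro-C, a chromatin conformation assay that digests chromatin with micrococcal nuclease, on C57Bl/6 mouse cochlea of postnatal day 0 (the series' design text has P0/1), untreated and without any allele named in the labels. The 4 Micro-C replicates, of which the study calls the last a technical replicate, were merged before calling, so no value has a spread between replicates and no test of a condition was possible. Whole cochleae were used, so a contact made in few cells of a type and one made weakly in many cells cannot be told apart, and hair cells are a minor cell type of this tissue. The loop list held no contact counts, so the number of contacts behind a loop could not be read from it. By the study's read counts, the technical replicate gave most of the merged read pairs. The ratios of observed to expected contacts that the study reports for its loops were not used here. The list held no expression values either, so the tissue label could not be checked against marker genes.

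Hair cells turn sound into electrical signals at the hair bundle, a staircase of actin-filled stereocilia joined by extracellular links and deflected against the tectorial membrane. Mechanotransduction channels open at the tips of the stereocilia, ribbon synapses pass the signal to the auditory nerve, and supporting cells and the stria vascularis keep the ionic gradient that drives the current. Chromatin loops are contacts between distant loci, many of them held by cohesin at pairs of sites bound by CTCF that face each other, and some join a promoter to a distal regulatory element.

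Among the 53 genes, 26 had a loop anchor, which was 49.1% (95% Wilson interval 36.1 to 62.1%), where 35.5% of all protein-coding genes had an anchor by the same rule. The members were long genes, with a median of 47.2 kb (3.40 to 538 kb) against 17.4 kb for all genes, and 45.7% of genes of like length (from 80 to 125% of the length of each member) had an anchor. The like-length share lay inside the interval of the members, so 26 members stood beside the 24.2 that the share of like-length genes gives. All intervals cover counting error over genes and not variation between animals. They treat the genes as independent, although Otog and Ush1c share a loop, and Gjb2 and Gjb6 share loops too.

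Loops spanned 21 of the 53 genes, 39.6% (27.6 to 53.1%), against 28.1% of all genes and 30.0% of genes of like length. Of 11 members that were both anchored and spanned, Coch, Marveld2, Otof, Ptprq and Slc17a8 had a loop that counted in both ways, with an anchor in the window of a gene it spanned. The start site itself lay in an anchor bin for 6 genes, 11.3% (5.29 to 22.6%), against 7.10% of all genes and 8.57% of those of like length. Neither an anchor nor a spanning loop was found for 17 genes, 32.1% (21.1 to 45.5%), against 49.5% of all genes and 40.4% of genes of like length. For the spanned genes, the start sites and the genes with neither, the like-length share lay within the interval of the members.

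**Figure D1:**
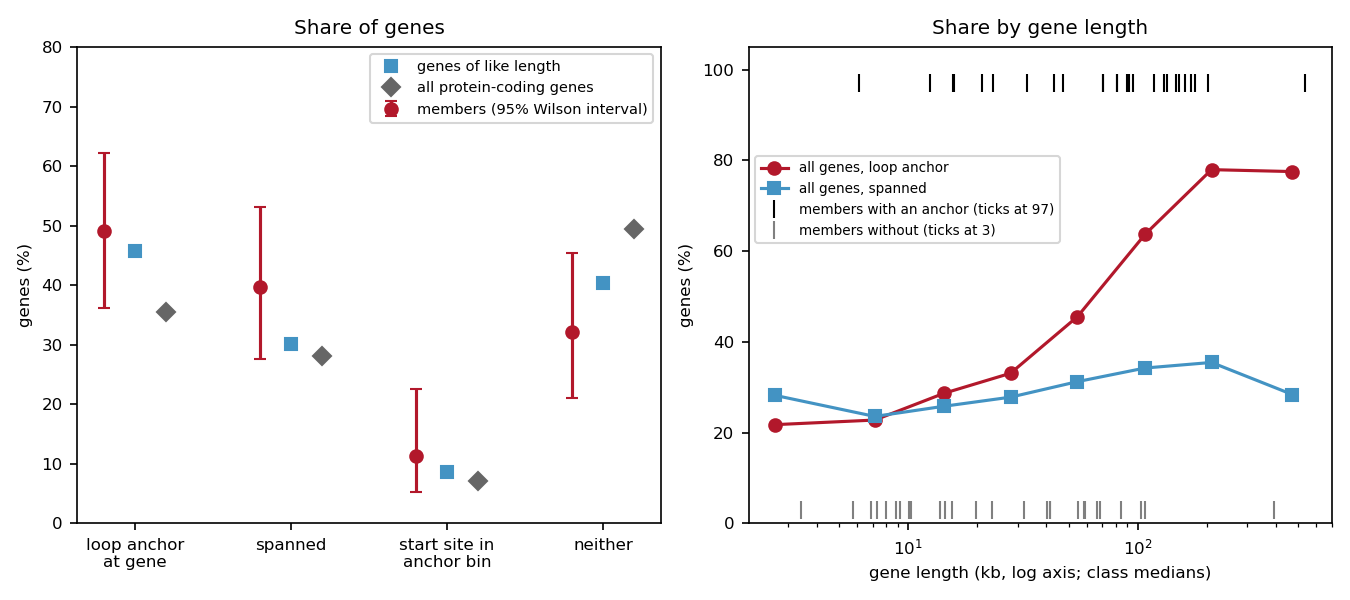
The left panel plots the percentage of genes with a loop anchor, spanned by a loop, with the start site in an anchor bin, or with neither, for the 53 members (circles, with 95% Wilson intervals), genes of like length (squares) and all protein-coding genes (diamonds). The right panel plots the percentage of all genes with an anchor or spanned against gene length on a log axis, with ticks for members with an anchor (top) and without (bottom); the share of genes with an anchor rises with length, and each member share in the left panel has the like-length share inside its interval.

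Anchors were more frequent at longer members, and at longer genes in general. Of the 17 members up to 20 kb, 4 had an anchor (23.5%, against 24.4% of all genes of that class), and of the 13 members over 100 kb, 10 had an anchor (76.9%, against 72.4%). Between 20 and 100 kb, 12 of 23 members had an anchor (52.2%, against 40.3%) and 12 of 23 were spanned (52.2%, against 29.6%). Up to 20 kb, 4 of 17 members were spanned (23.5%, against 26.0%), and over 100 kb 5 of 13 (38.5%, against 33.8%). These length classes hold few members, and their differences were not tested. The median length was 85.6 kb for the 26 anchored members, 48.3 kb for the 10 that were spanned without an anchor and 14.4 kb for the 17 with neither. The spread of each share over animals was not measurable here.

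The sequences that bear on the loops are shown before the genes. The start sites of Adgrv1, Gjb2, Otogl, Ptprq, Slc17a8 and Strc lay in an anchor bin, and the RefSeq promoter table of GRCm38.p6 held 4 of these 6, each from 250 bases before to 50 after the start. In these promoters the motif TATAAA, known for placing the start of transcription, the motif CCAAT, known as a site of the factor NF-Y, and the GC box GGGCGG were searched on both strands, and capitals mark the matches. Gjb2 held 2 GC boxes, Adgrv1 and Strc held 1 CCAAT motif each on the opposite strand to the gene, and Slc17a8 held none of the 3 motifs. The RefSeq start of Strc lies 6228 bp from the GENCODE start site but in the same bin, while the other 3 starts lie within 10 bp of it.
Gjb2, chr14:57104653-57104952 on the reverse strand: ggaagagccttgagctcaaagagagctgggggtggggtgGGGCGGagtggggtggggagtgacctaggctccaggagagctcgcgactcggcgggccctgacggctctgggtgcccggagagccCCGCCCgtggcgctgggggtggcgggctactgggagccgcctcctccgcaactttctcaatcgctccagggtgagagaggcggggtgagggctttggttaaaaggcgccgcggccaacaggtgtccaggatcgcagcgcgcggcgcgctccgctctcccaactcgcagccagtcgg
Adgrv1, chr13:81633095-81633394 on the reverse strand: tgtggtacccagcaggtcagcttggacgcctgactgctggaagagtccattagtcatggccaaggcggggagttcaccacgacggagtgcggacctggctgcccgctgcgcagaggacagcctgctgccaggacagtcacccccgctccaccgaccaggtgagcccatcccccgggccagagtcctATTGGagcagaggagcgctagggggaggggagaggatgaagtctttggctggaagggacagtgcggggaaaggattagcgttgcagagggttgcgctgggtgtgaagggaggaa
Slc17a8, chr10:89621200-89621499 on the reverse strand: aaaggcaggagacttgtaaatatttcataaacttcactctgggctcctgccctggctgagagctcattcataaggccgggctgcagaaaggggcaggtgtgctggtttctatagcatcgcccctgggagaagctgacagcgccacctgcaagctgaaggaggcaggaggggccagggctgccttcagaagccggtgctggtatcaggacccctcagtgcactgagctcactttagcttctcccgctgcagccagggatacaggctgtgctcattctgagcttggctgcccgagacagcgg
Strc, chr2:121380891-121381190 on the reverse strand: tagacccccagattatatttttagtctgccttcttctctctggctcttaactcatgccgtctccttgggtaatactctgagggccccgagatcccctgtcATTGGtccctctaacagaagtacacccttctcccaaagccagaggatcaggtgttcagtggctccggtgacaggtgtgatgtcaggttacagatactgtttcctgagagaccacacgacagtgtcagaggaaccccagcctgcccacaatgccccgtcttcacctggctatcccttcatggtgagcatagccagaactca

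Of 32851 RefSeq promoters of the same length, 13.6% held TATAAA, 37.4% held CCAAT and 35.7% held the GC box. The Gjb2 promoter had 27 CG pairs and 70.0% GC, against medians of 7 CG pairs and 52.7% GC over all promoters. The promoters of Adgrv1 (14 CG pairs), Slc17a8 (7 CG pairs) and Strc (5 CG pairs) lay nearer to that median. A letter match describes the sequence and does not show that a factor binds there.

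The anchors were also searched for the CTCF consensus, with at most 1 mismatch over 14 letters and the best match giving the direction of the bin. Of the loops with an anchor at a member, 9 had a direction at both ends, and in 4 of them the matches faced each other. The matches of 3 of these convergent loops, at Grxcr1, Whrn and Tectb, are printed because they mark the 2 ends of a loop, with the match in capitals and 8 bases on each side, each read 5′ to 3′ on its own strand.
Grxcr1, left anchor, match at chr5:67752073-67752086 on the forward strand: aacttggaCCACTAGGTGGCAGgtcctccc
Grxcr1, right anchor, match at chr5:68012848-68012861 on the reverse strand: cagaatgaCCCCCAGGGGGCAGtgcatccc
Whrn, left anchor, match at chr4:63508417-63508430 on the forward strand: cactaccgCCACCAGGGGGAGCtgctgctc
Whrn, right anchor, match at chr4:63948241-63948254 on the reverse strand: taaaagaaCCAGCAGGTGGCAGcctcctcc
Tectb, left anchor, match at chr19:54044563-54044576 on the forward strand: accagcggCCAGCAGGTGTCAGtgcgctct
Tectb, right anchor, match at chr19:55198526-55198539 on the reverse strand: atgacccgCCACTAGATGGTGCtgtctgac

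In other loops both matches pointed the same way, and those of Otoa, Grhl2 and Otog are printed for contrast with the convergent ones, again with the match in capitals.
Otoa, left anchor, match at chr7:121160428-121160441 on the forward strand: ctgcagagCCTCCAGAGGGCACtagatggc
Otoa, right anchor, match at chr7:121637029-121637042 on the forward strand: ccatcagcCCAGAAGGTGGCACtacccaca
Grhl2, left anchor, match at chr15:37120625-37120638 on the forward strand: aaaacctgCCACTAGGGGACGCcctttagc
Grhl2, right anchor, match at chr15:37328183-37328196 on the forward strand: tggggagtCCACTATATGGCAGttgccaac
Otog, left anchor, match at chr7:46276723-46276736 on the reverse strand: ggcactcaCCACTGGGTGGCAGgtctcgaa
Otog, right anchor, match at chr7:46606559-46606572 on the reverse strand: tctgcccaCCACCAGATGGCAGcaatgggc

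Anchor bins of the loops at members held a CTCF match at a share close to that of anchor bins in general, in 46 of 98 bins (46.9%, 37.4 to 56.7%) against 48.4% of 11828 anchor bins and 21.4% of all 10 kb bins. Of the 9 loops with a direction at both ends, 4 were convergent, 3 had both matches forward, 2 had both reverse and none was divergent. The convergent share was 44.4% (18.9 to 73.3%), against 68.3% of the 1502 loops of the whole list with a direction at both ends, and the interval covers that value. With up to 2 mismatches, 16 of 31 loops at members were convergent. No share of the whole list is given at that setting, so this count has no reference, and 68.3% belongs to at most 1 mismatch. CTCF binding itself was not analysed here.

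Of the 6 Usher and stereocilia link genes, 4 were anchored and 3 spanned, where the shares of genes of like length (52.2% and 30.0%) give 3.13 and 1.80, and Ush1g had neither. Adgrv1 encodes the very large adhesion receptor of the ankle links and had 7 anchored loops, the most of any member. It is 538 kb long, and 78.0% of the 173 genes of like length had an anchor. From exons 83, 71 to 74 and 87 of 90 and from an intron, 4 of its loops ran downstream over 270 to 560 kb to bins 80860001, 80870001 and 80880001 of chromosome 13, the last of which holds the start site of Arrdc3. From exons 60 to 66, a loop of 310 kb ran upstream into Mblac2 (FDR 0.000198), and another of 200 kb ended 6847 bp upstream of the Adgrv1 start site (FDR 0.00562). FDR here is the q-value of the loop caller, and all loops of the list lie below 0.1. The bin with the Adgrv1 start site, whose promoter is printed above, joined exons 28 to 33 over 110 kb with an FDR of 0.0633.

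Ptprq, a receptor-like phosphatase of the shaft connectors, had 3 loops, all running downstream past the end of the gene. The loop from the bin with its start site covered 280 kb (FDR 0.00373). A 780 kb loop started in the neighbouring bin with exons 1 to 6, whose edge lies 51 bp from the start site (FDR 0.00316), and reached a bin with Ppfia2 and Acss3. These 2 anchors are adjacent bins, so their separation is at the resolution of the list. The remaining loop of 1130 kb had its anchor 19950 bp upstream, just inside the 20 kb window (FDR 0.0666).

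Whrn, which encodes the scaffold whirlin, had 2 loops that met in the same upstream bin 63940001 of chromosome 4. The 520 kb loop came from exon 8 (FDR 0.00307) and the 440 kb loop from a bin 4010 bp upstream of the start site (FDR 0.0237), and the latter carries the convergent matches printed above. Ush1c, the gene for the scaffold harmonin, was joined from exons 24 to 27 to a bin in Kcnj11 over 100 kb (FDR 0.00337). Clrn1, which encodes clarin, was spanned by a 410 kb loop (FDR 0.00694) with its start site 94661 bp from the nearest anchor. Ush1g, the gene for the scaffold sans, lay 317960 bp from the nearest anchor.

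Of the 8 genes of the acellular membranes and matrix, 7 were anchored, where the like-length share of 43.2% gives 3.45, and Ceacam16 was not. These role groups are small and were not tested. Otogl, which encodes an otogelin-like protein, had 5 loops, and both loops at its start site stayed inside the gene. They joined the start site to exons 22 to 25 over 60 kb (FDR 0.00783) and to exons 32 to 34 over 110 kb (FDR 0.0522). From 17867 bp upstream, a further loop reached the start site of Ppp1r12a over 230 kb (FDR 0.00116), which was the lowest FDR among the Otogl loops. Otoa, the gene for otoancorin, had 4 loops of 130 to 470 kb, of which 2 ran upstream into Polr3e and 2 downstream from exons 25 to 27 and 28 to 29.

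Tectb, which encodes beta-tectorin, had the second lowest FDR of the loops anchored at members, 3.06e-06 for a 110 kb loop from exons 8 to 11 to Gpam. The same bin was joined over 1150 kb to the start site of Adra2a (FDR 0.0891), the longest loop anchored at a member. The convergent CTCF matches printed above belong to this 1150 kb loop, and the left anchor of the 110 kb loop held no match. Only 0.530% of the list had a lower FDR than the shorter loop, while 96.6% had a lower FDR than the longer. Tecta, which encodes alpha-tectorin of the same membrane, was joined from its last exon, 24, to the start site of Grik4 over 620 kb (FDR 0.00496).

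Strc, the gene for stereocilin of the horizontal top connectors, was joined over 210 kb from its start site bin to a bin with the start sites of Zscan29 and Tubgcp4 (FDR 0.0377). This was the only loop with a start site of a member at an anchor and that of another coding gene at the other. Coch, which encodes the abundant matrix protein cochlin, had no anchor in its body and counted through a bin 16660 bp downstream of its start site. That 200 kb loop also spanned the gene (FDR 0.000609), and a 360 kb loop enclosed it together with Strn3 and Ap4s1. Ceacam16 lay 261299 bp from the nearest anchor.

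Otog, the gene for otogelin, and Ush1c lie head to head on chromosome 7, and a 270 kb loop spanned both. Its anchors held the start sites of Kcnj11 and Myod1 (FDR 0.0308), and Otog and Ush1c were the only coding genes it enclosed. Otog also had a loop of its own from exons 25 to 30 to Sergef over 330 kb (FDR 0.00940).

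**Figure D2:**
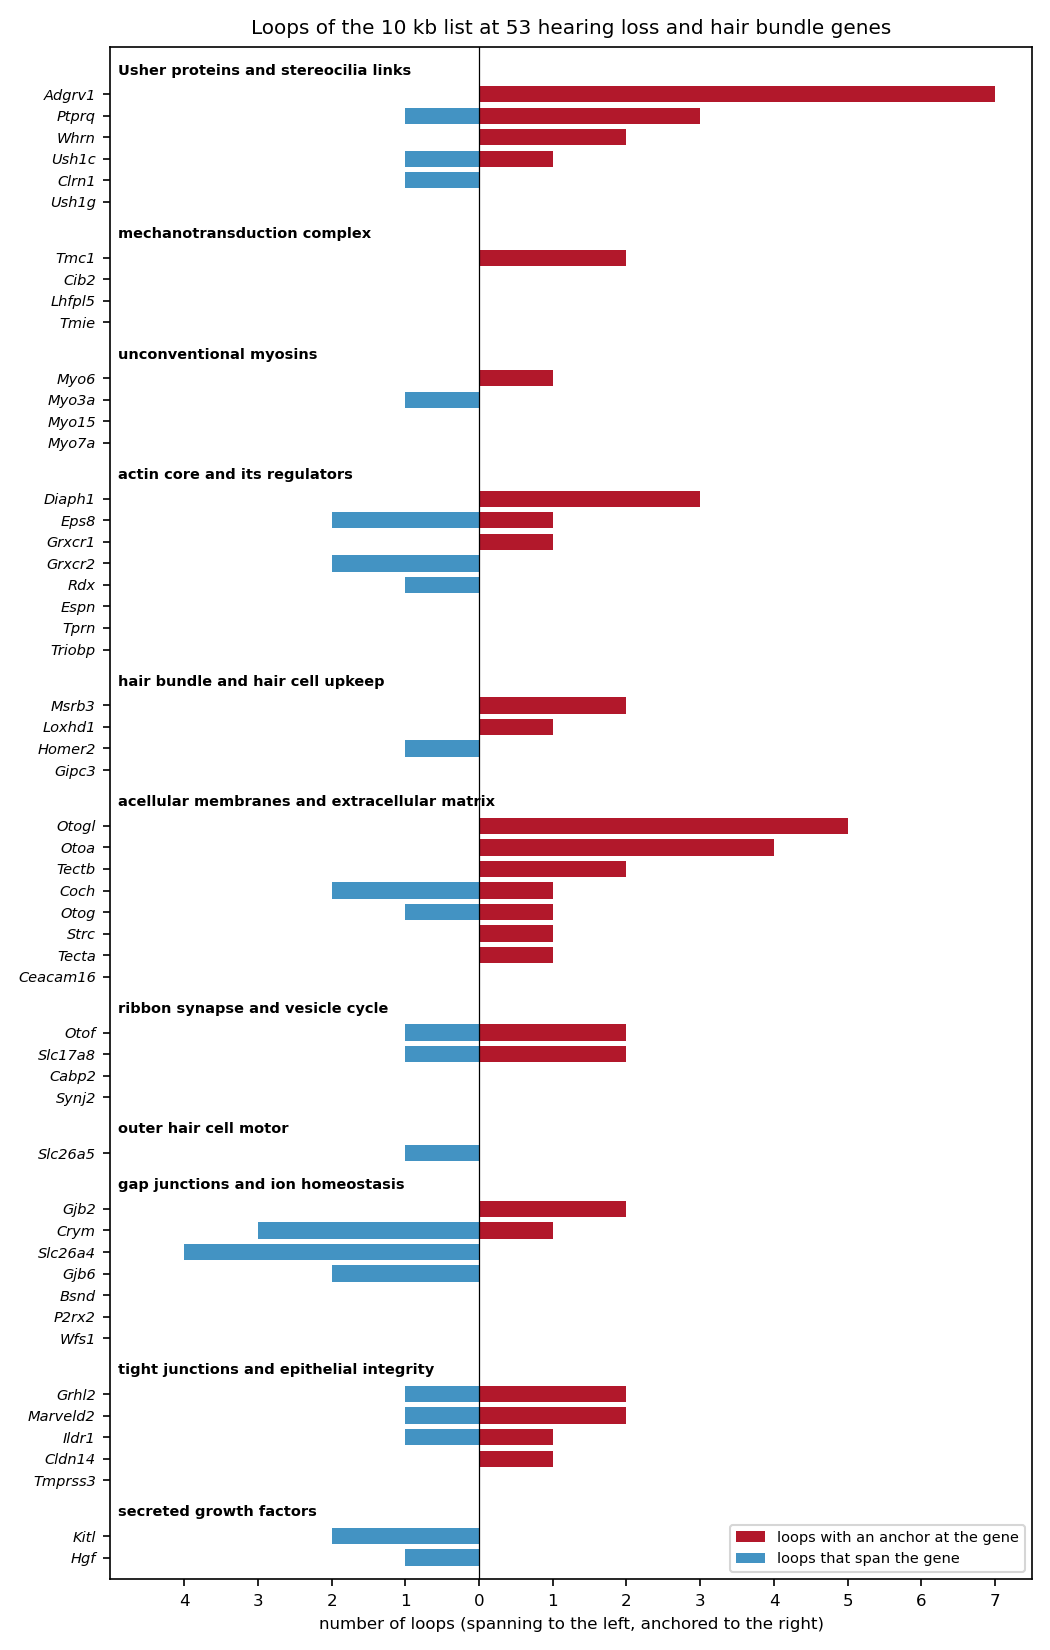
Bars give the number of loops with an anchor at each of the 53 genes (right) and the number that span the gene (left), grouped by role. Adgrv1 with 7 and Otogl with 5 have the most anchored loops, Slc26a4 with 4 has the most spanning loops, and 17 genes have no bar.

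In the mechanotransduction complex, 1 of 4 genes was anchored, Tmc1, and the like-length share was 39.9%. Tmc1, a pore-forming subunit of the channel, had 2 upstream loops, a 450 kb loop from exons 11 to 14 to the start site of Zfand5 (FDR 0.0716) and a 760 kb loop from exons 17 to 18 (FDR 0.00503). Its partners Tmie, Lhfpl5 and Cib2 had neither an anchor nor a spanning loop. They were short genes of 14.4, 10.0 and 15.4 kb, whereas Tmc1 was 171 kb long, and of genes of like length 29.4, 25.6 and 29.5% had an anchor against 75.1% for Tmc1. Lhfpl5 came nearest to an anchor, at 35641 bp.

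Unconventional myosins move cargo along actin in the stereocilia, and 1 of 4 was anchored, where the like-length share of 63.1% gives 2.52. Myo6, the minus-end directed motor at the base of the bundle, had a 100 kb loop from 5031 bp upstream of the start site to exons 10 to 12 (FDR 0.0830). Myo3a was spanned by a 750 kb loop that also enclosed Gad2 (FDR 0.0581), and it had no anchor although it is 391 kb long and 80.7% of the 295 genes of like length had one. Myo7a, the myosin of Usher syndrome, and Myo15, a motor that carries cargo to the stereocilia tips, had neither. The start site of Myo7a lay 30477 bp from an anchor and that of Myo15 279339 bp.

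Of 8 genes of the actin core, 3 were anchored and 3 spanned, where the like-length shares of 46.9% and 30.7% give 3.75 and 2.45. Grxcr1, which encodes a glutaredoxin-like protein of the stereocilia, had the lowest FDR of all loops anchored at a member, 2.46e-06. Its anchor lay 11835 bp upstream of the start site and not in the gene body, and the loop ran 260 kb further upstream into Atp8a1. Only 0.441% of the list had a lower FDR, and this loop carries the convergent CTCF matches printed above.

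Eps8, which encodes an actin regulator of the stereocilia tips, was anchored in a bin 4876 bp downstream of its start site by a 180 kb loop into Ptpro (FDR 0.0108). Loops of 270 and 520 kb with a shared upstream anchor spanned it, and the shorter had the lowest FDR of all loops spanning a member (1.58e-05) and enclosed Eps8 alone. Rdx, the gene for radixin at the stereocilia base, was also enclosed alone, by a 130 kb loop (FDR 0.00659) that was the shortest to span a member. Espn, Tprn and Triobp, which encode the bundling and taper proteins espin, taperin and TRIOBP, had neither. Tprn had the most distant anchor of all members, at 502618 bp.

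The actin genes Diaph1 and Grxcr2 lie on chromosome 18, the former with 3 anchored loops and the latter with none. Diaph1, which encodes a formin that nucleates actin, had its 3 loops downstream from exons 18 to 20 and the intron between them. These loops of 110 to 400 kb reached the protocadherin cluster, with the start sites of Pcdhb17 and Pcdhb18 in the bin of the longest (FDR 0.0391) and those of Pcdhgb7 and Pcdhga11 in the bin of the shortest (FDR 0.00449). Grxcr2, whose protein is a relative of that of Grxcr1, lay between the anchors of loops of 1780 and 1960 kb from the bin with the start site of Kctd16, and 1960 kb was also the longest distance in the whole list. The clustered protocadherin genes are related in sequence, which could make read assignment there less certain. The part of read assignment in these loops was not tested.

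Among genes for upkeep of hair cells, 2 of 4 were anchored, where the like-length share of 56.7% gives 2.27. Loxhd1, whose protein lines the stereocilia membrane, had a 290 kb loop from an intron with an FDR of 9.75e-05. Its anchors held convergent matches to the CTCF consensus. Msrb3, a methionine sulfoxide reductase, was joined downstream from exon 2 over 630 kb (FDR 0.000501) and from exons 3 to 4 over 150 kb (FDR 0.0104). Homer2, a scaffold gene, was spanned by a 210 kb loop (FDR 0.0635), and Gipc3 had neither.

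Of the 4 synapse genes, Slc17a8 and Otof were anchored and Cabp2 and Synj2 had neither, and the like-length share of anchored genes was 46.2%. Slc17a8 encodes the vesicular glutamate transporter of inner hair cells, and its start site bin was joined to Nr1h4 over 160 kb with an FDR of 2.6e-05. Of the start site loops of members this had the lowest FDR. Otof, the gene for the calcium sensor otoferlin, was joined from exon 5 to an upstream bin over 220 kb (FDR 0.00850), and a 260 kb loop spanned it from an anchor 18069 bp upstream (FDR 0.0233). Cabp2, a calcium-binding regulator of the same synapse, lay 371578 bp from the nearest anchor.

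**Figure D3:**
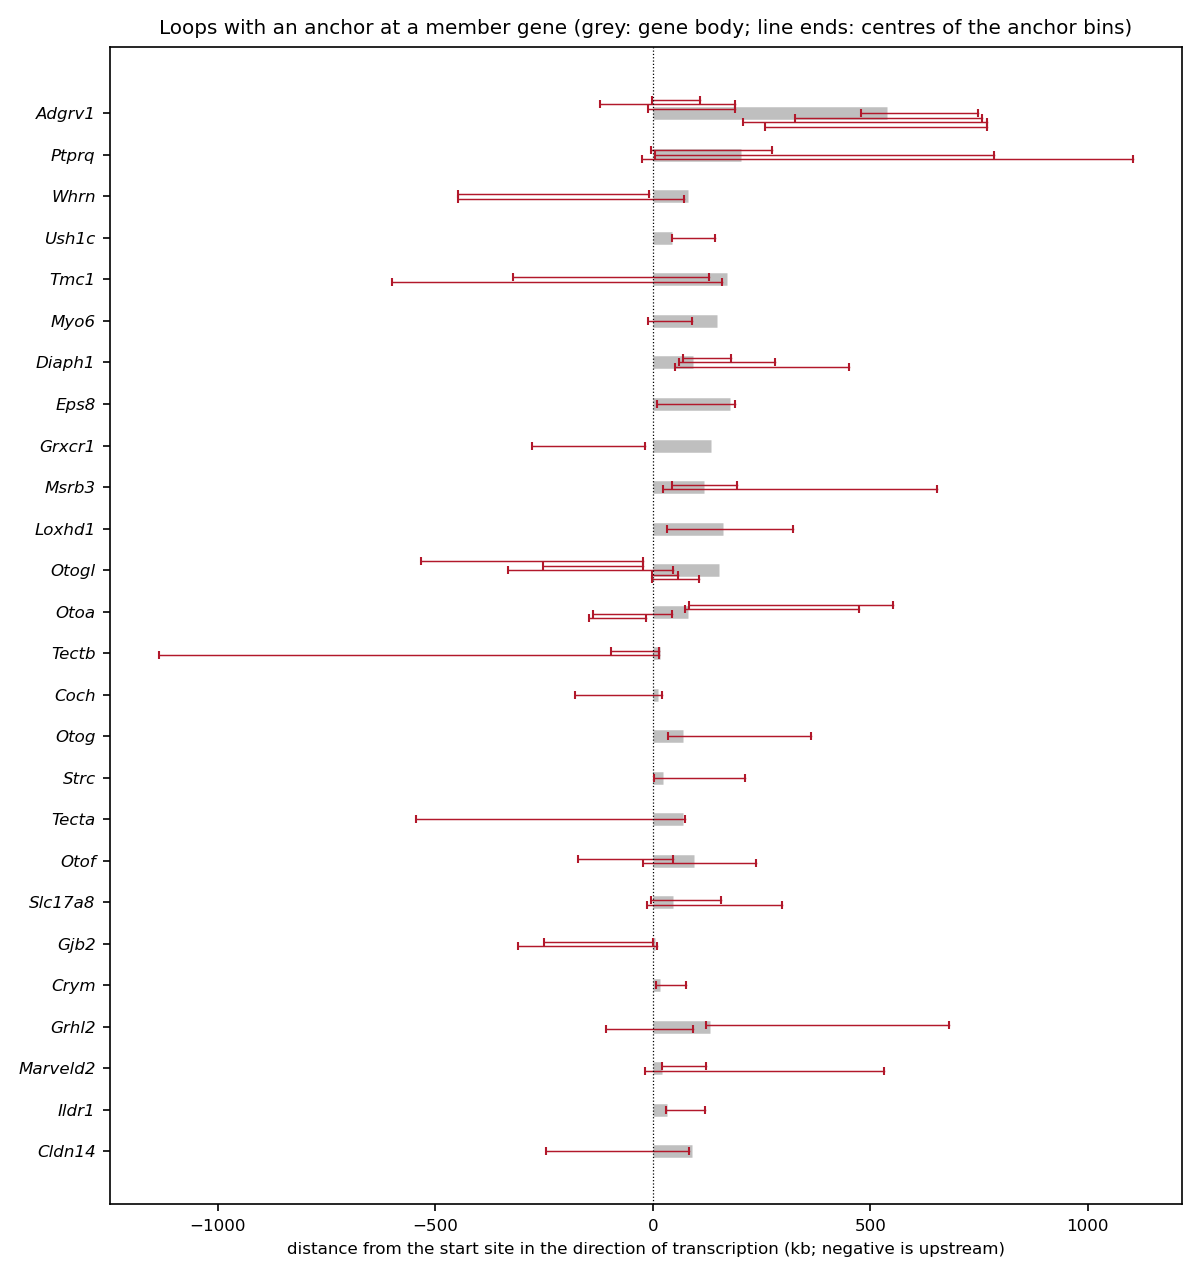
Each row is a member with an anchored loop, and the x axis is the distance in kb from its start site in the direction of transcription. Grey bars are gene bodies and red lines join the centres of the anchor bins of each loop; the loops of Adgrv1 lie on both sides of its body, those of Ptprq, Diaph1 and Msrb3 run downstream and those of Whrn, Tmc1 and Gjb2 upstream.

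Of the 7 genes grouped under gap junctions and ion homeostasis, 3 were spanned and 2 anchored, where the like-length shares of 26.2% and 28.0% give 1.84 and 1.96. Gjb2 and Gjb6 encode the connexins 26 and 30 of the supporting cells and lie side by side on chromosome 14. Gjb2 is 6.10 kb long, and 22.1% of the 2205 genes of like length had an anchor. Its start site bin was joined over 250 kb to Cryl1 (FDR 0.000996), and its last exon over 320 kb to a bin with no coding gene (FDR 0.0813).

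Both loops spanned Gjb6, whose start site lay 23611 bp from the Gjb2 anchor, just outside the 20 kb window. Gjb6 was therefore spanned but not anchored under the rule, and its values are not independent of those of Gjb2. The shorter loop enclosed Gjb6 and the gene model Gm4491, while the longer also enclosed Cryl1.

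Slc26a4, which encodes the anion exchanger pendrin, had no anchor and 4 spanning loops of 140 to 550 kb, the most of any member. Of these, 3 shared the anchor bin 31500001 of chromosome 12, and the loops of 420 and 550 kb had the lower FDR (0.00280 and 0.00394). Crym, the gene for the thyroid hormone binding protein mu-crystallin, had an own loop of 70 kb from exons 3 to 6 (FDR 0.000191) inside 3 spanning loops of 220 to 530 kb. Bsnd, P2rx2 and Wfs1, genes of a chloride channel subunit, an ATP-gated channel and an endoplasmic reticulum protein, had neither.

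Slc26a5, which encodes prestin, the motor of outer hair cells, was spanned by a 760 kb loop that also enclosed Psmc2 and Reln (FDR 0.00960). Its start site lay 74397 bp from the nearest anchor. Both secreted factor genes were spanned and not anchored, and the like-length shares were 33.6% spanned and 53.5% anchored. Hgf, the gene for hepatocyte growth factor, was the only coding gene in its 550 kb loop (FDR 0.00270). Kitl, the ligand of the KIT receptor of melanocytes, lay in loops of 520 and 810 kb from a shared anchor (FDR 0.00274 and 0.00179).

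Of the 5 tight junction and epithelial genes, 4 were anchored and 3 spanned, where the like-length shares of 43.7% and 30.6% give 2.18 and 1.53. Cldn14, the gene for a claudin that seals the reticular lamina, had a 330 kb upstream loop from its last exon into Hlcs (FDR 0.000135). Grhl2, an epithelial transcription factor gene, was joined upstream from exon 9 over 200 kb (FDR 0.000386) and downstream from exon 15 over 560 kb (FDR 0.00836). Marveld2, which encodes tricellulin, was joined to the start site of Gtf2h2 over 100 kb (FDR 0.0274), and Ildr1, a further tricellular junction gene, had a 90 kb loop into Eaf2 (FDR 0.0806). Tmprss3, a serine protease gene, had neither.

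Across the list of genes, the 52 loops with an anchor at a member had distances near those of the whole list. Their median was 275 kb (60 to 1150 kb) against 280 kb for all 6798 loops, and their median FDR was 0.00843 against 0.0113. An FDR below 0.05 was reached by 78.8% of them and of all loops alike, and below 0.01 by 29 of 52 (55.8%) against 48.0%. The 30 loops that spanned a member had a median of 450 kb (130 to 1960 kb). The rule itself favours long loops, since a loop must be longer than a gene to span it. Loops that span other genes were not compared.

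**Figure D4:**
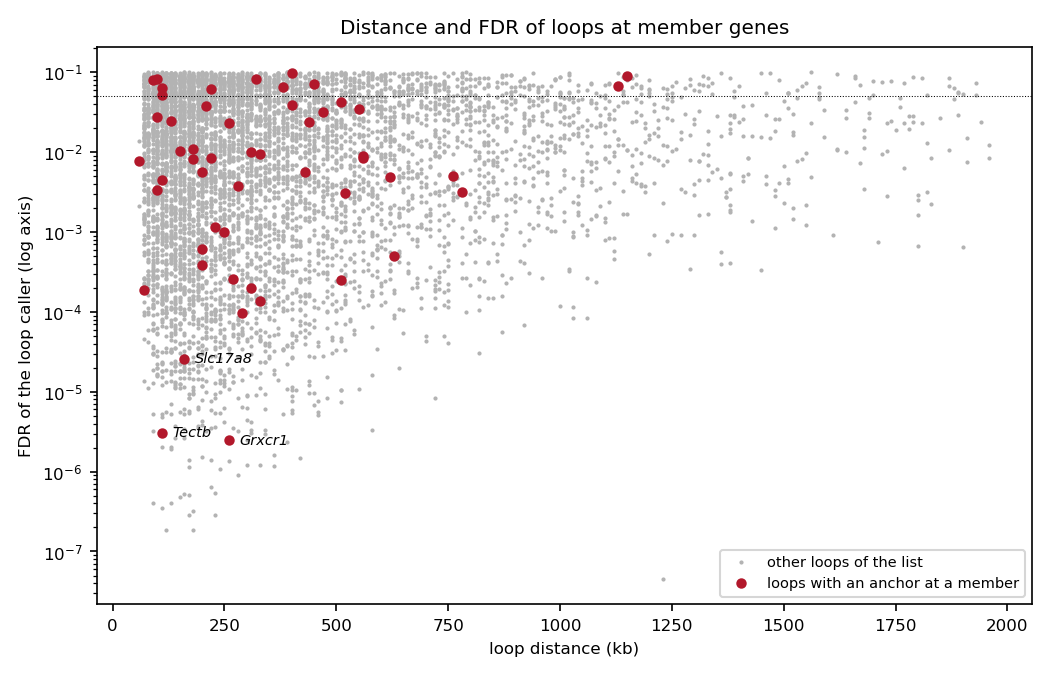
Each point is a loop, placed by its distance in kb and the FDR of the loop caller on a log axis, red for the 52 with an anchor at a member and grey for all others, with a dotted line at 0.05. The member loops lie within the cloud of the list, and those of Grxcr1, Tectb and Slc17a8 have the lowest FDR among them.

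Loops had 57 ends at members, and a bin was counted once for each loop that ended there. Of these ends, 35 held an exon without the start site and 3 lay in an intron. The start site was in 7, while 11 lay upstream and 1 downstream of the gene. Ends in the body without the start site were 66.7% of these, against 53.8% at all protein-coding genes, and ends with the start site were 12.3% against 13.2%. The rule counts any bin in the body, and the members are longer than all genes. In 5 loops both anchors were at the same gene, in Adgrv1, Otogl and Myo6. Of the 47 partner ends away from the gene, 27 lay downstream and 20 upstream. The start site of another coding gene was in 9 of these 47 (19.1%, 10.4 to 32.5%), against 11.7% of all loop ends, and 18 held no coding gene. That reference takes both ends of every loop, whether or not an anchor lies at a coding gene, and the interval covers it. Partner ends of loops at other coding genes were not compared. A 10 kb bin holds many elements, so an exon in an anchor bin does not place the contact at that exon.

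The number of anchor bins within 500 kb of the start site had a median of 7 for the members and 6 for all genes. Otoa had the most with 16, and Tprn had 0. The distance from the start site to the nearest anchor had a median of 42.4 kb over all members and 56.6 kb over all genes. For the 17 with neither, the distance ran from 30477 bp at Myo7a to 502618 bp at Tprn.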

How the data were processed

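Micro-C of C57Bl/6 cochlea was analysed from the loop list of the 4 merged replicates; ATAC-seq and CUT&RUN samples were not analysed here. The authors aligned reads to mm10 with BWA, made contact maps with Juicer tools per the labels and used Mustache for the loops, at a bin size of 10 kb. The authors deposited the loop caller's q-value (FDR) of each loop, and all lie below 0.1. They also deposited its detection scale, a filter width and no measure of strength, which was entered under the unit score only for want of a unit of its own. Bin positions were used as deposited. No anchor bin runs past a chromosome end of GRCm38, and genes were those of GENCODE vM21. No sample depth is held by the list.

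Overlaps, shares and 95% Wilson intervals came from Python 3.11.15 with scipy 1.17.1, pandas 2.3.3, numpy 2.4.6 and, for plots, matplotlib 3.10.9. Genes of like length were, for each member, all other protein-coding genes from 80 to 125% of its length, without members and without 55 other hearing loss genes, and their shares were averaged over members. CTCF letters were read from GRCm38.p6 in whole bins; a bin with equally good matches on both strands had no direction. Matching of loops and genes and the motif search were tested on simulated data. The members, the role groups and the further list were chosen with earlier results of these data known, and all 53 members are named by rule.

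No test was made, since the list has no replicates. Alternatives were the FDR limit, the detection scale, merging calls within 100 kb, the window, the start sites used, the loop distance and the factor for like length.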

Additional observations from a re-analysis of the deposited data

How the results depend on the processing

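Under 17 alternative settings 28 values were recomputed, 22 of them counts of members and 6 of them shares. Of the 28, 23 stayed, counts within 1.5 times the reported count and shares within reach of a Wilson interval around the reported share. These limits are wide for small counts. A start site count of 4 instead of 6, at FDR below 0.01, still counted as staying. The convergent share rests on 9 loops, so its interval could hardly exclude another value. The number of spanned members fell from 21 to 10 with loops of FDR below 0.01 and to 11 with loops under 400 kb, both of which use fewer loops. Anchored members numbered 17 when the body was left out and the start site window alone was used. No share of all genes or of genes of like length is given beside the recounts of members, so these recounts describe the members alone. Members with the start site in an anchor bin rose from 6 to 10 with the start sites of all transcripts, which added Cldn14, Eps8, Msrb3 and Tectb. That setting also gave an anchor to Espn and Gjb6, so that 28 members were anchored. Members with the start site in an anchor bin numbered 11 when the start site could lie within 10 kb of an anchor bin. With FDR below 0.05, Ildr1 and Myo6 lost their anchor and Adgrv1 its start site anchor. With FDR below 0.01, anchors were also lost at Eps8, Marveld2 and Strc, and the start site anchor at Strc. Merging calls within 100 kb left 5725 loops and removed the anchor of Eps8 and the start site anchor of Adgrv1. With exact CTCF matches no loop at a member had a direction at both ends, so no share could be given. No paired analysis was possible because the replicates were merged and the result comes from no test. Loops and missing loops both depend on a depth that the list does not give, so a gene without a loop is one without a call.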

Other observations

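A further list of 55 hearing loss genes outside the 53 gave similar shares. Of these, 30 had a loop anchor (54.5%, 41.5 to 67.0%, against 50.1% of genes of like length) and 23 were spanned (41.8%, 29.7 to 55.0%, against 29.9%). The start site lay in an anchor bin for Cdh23, Chd7, Eya4 and Pou3f4, which was 4 genes or 7.27% (2.86 to 17.3%, against 9.50%). Cdh23, the gene for the upper part of the tip link, had 5 anchored loops. Pcdh15, the gene for the lower part, had 2.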
